A study of Homo sapiens with 24 samples.

Results

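SAS is an established human cell line of head and neck squamous cell carcinoma. The sample described here is the single array on which RNA of SAS cells transfected with miR-29a was compared with RNA of SAS cells transfected with a control miRNA. It is 1 of the 24 arrays of the series. Cy5 marked the RNA of the miR-29a cells and Cy3 that of the control cells, without a dye swap, and both cultures had been transfected with Lipofectamine RNAiMAX. The amount of miRNA and the time from transfection to extraction are not given in the sources used here. Every value of this array is therefore a ratio of 1 treated to 1 control culture, with no replicate, no test and no p-value. The array was chosen by its label, and the genes described were chosen with earlier results of the series known. As background, 2 other arrays of the same cell line were used, each again 1 treated against 1 control culture. One compared an siRNA against LAMB3 (si-LAMB3) with a control siRNA, and the other compared the flavone wogonin with DMSO. The controls of the 3 SAS arrays are separate RNA samples with different handling. Some comparisons used all 15 other arrays of the design, which include these SAS arrays. They add PC3 and DU145 with genistein, A498 and 786-O with an siRNA against CAV2, and PC3, DU145 and LNCaP with miR-145. Also added are FaDu with miR-375, si-LAMB3 and wogonin, and PC3 with miR-23b, miR-24 and miR-27b, 1 array each. The remaining arrays of the series were not used.

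The miR-29 family consists of short RNAs that guide Argonaute proteins to messenger RNAs, mostly through pairing of the seed, the stretch near the 5′ end of the miRNA, with matching letters in the 3′ untranslated region. Transcripts bound in this way are degraded or translated less. The family is best known for its many targets in the extracellular matrix, above all collagens, and also for targets among the enzymes of DNA methylation and demethylation. COL4A1 and COL4A2 encode the chains of the major type IV collagen, the network-forming collagen of basement membranes.

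The mature sequences are shown because the seed defines which transcripts could pair with the transfected miRNA. The seed (bases 2 to 8 from the 5′ end) is in capitals, and the sequences are those of RefSeq, build GRCh38.p14. The gene of miR-29a lies on the reverse strand of chromosome 7, with the mature form at chr7:130876748-130876769. The labels give the transfected miRNA only as miR-29a, and the 3p form is taken here as the mature miRNA.
hsa-miR-29a-3p: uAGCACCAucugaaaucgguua
hsa-miR-29b-3p: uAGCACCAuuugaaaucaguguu
hsa-miR-29c-3p: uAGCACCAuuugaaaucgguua
The 3 mature miRNAs share the seed AGCACCA and differ only after it. No other mature miRNA of the table had this seed.

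The letters that pair with the seed were searched on the sense strand of the 60-base array probes, which are short windows of the transcripts and mostly lie near their 3′ ends. The probes shown next were lower after miR-29a by at least 1 on the log2 scale, held a match of 7 or 8 letters, and gave signal well above the background of the control channel of all 3 SAS arrays. They are 9 of 23 such probes, picked after their values were seen. They are shown because each joins a possible pairing site and a fall in the same 60 bases. Each line gives 30 bases around the match in the sense of the transcript, with the match in capitals.
COL4A1: aaagGGTGCTAggaggtgtgggtgccttcc
PTX3: actttatgccaTGGTGCTttcagtttaatg
PTPRK: ctagattgccagctcatgacaTGGTGCTta
FRAS1: gtaaacatttgTGGTGCTgtcaacctgatt
GCSH: tgcgatacactgcatttgcTGGTGCTAttt
HBP1: ttgatatcctgTGGTGCTAaagtacagtag
ELOVL4: tcttgactcctTGGTGCTAaagattgttaa
ATAD2B: ttggttcagctaTGGTGCTAttcagtaggt
CFL2: acGGTGCTAattagtaaaatattgaaggca
TGGTGCT pairs with bases 2 to 8 of the miRNA, GGTGCTA pairs with bases 2 to 7 and ends on an A, and TGGTGCTA holds both. A match in a probe is a description of these letters, and no binding was measured. On hg19 the COL4A1 probe lies on the reverse strand at chr13:110802347-110802406, the GCSH probe on the reverse strand at chr16:81115983-81116042 and the HBP1 probe on the forward strand at chr7:106842145-106842204.

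Of the spots on the miR-29a array, 56.0% were well above background in Cy3, the control channel, and 66.2% in Cy5, the miR-29a channel. A probe was tested where it was well above background in at least 1 channel, and a gene was represented by its brightest tested probe. A gene was called lower or higher where the log2 ratio of miR-29a over control was at least 1 in size, that is 2-fold. The scanner software assigned each log2 ratio an error from 1 array, with a median of 0.219. This error describes the reading of the array alone, so cultures could differ by more. The SAS arrays lay on the same slide. Fibroblast markers were near absent, as 2 of 6 were tested and 0 were well above the background of the control channel, whereas 9 of 10 squamous epithelium markers were well above background there. COL1A2, COL3A1, PDGFRB and LUM were not well above background in either channel. The leukocyte marker CD14 and the endothelial markers VWF and CDH5 were well above the background of the control channel. PTPRC and CD3E reached this level in the miR-29a channel only, and PECAM1 in neither channel.

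After miR-29a, 596 of 14773 tested genes (4.03%) were lower and 739 (5.0%) were higher. The si-LAMB3 array had 6.99% of its genes lower and 7.39% higher, and the wogonin array had 6.63% lower and 6.43% higher. Of the 739 higher genes, 530 were not well above the background of the control channel, whereas this held for 3 of the 596 lower genes. When only probes well above the background of the control channel of all 3 SAS arrays were used, 477 of 12505 genes were lower and 183 were higher, so that the share of calls that were lower went from 44.6% to 72.3%. Normexp background correction with loess gave 258 lower and 56 higher genes, a share of 82.2%. Loess without background correction gave 305 and 71. The balance between falls and rises thus depends on the processing. Of the lower genes, 156 (26.2%) were also lower on the si-LAMB3 array, which is 15.1% of the genes lower there. A total of 135 (22.7%) were also lower on the wogonin array, which is 13.8% of those. A further 374 (62.8%) were lower on neither. The plot of ratio against signal shows where the collagens and the reported targets lie among all genes.

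**Figure D1:**
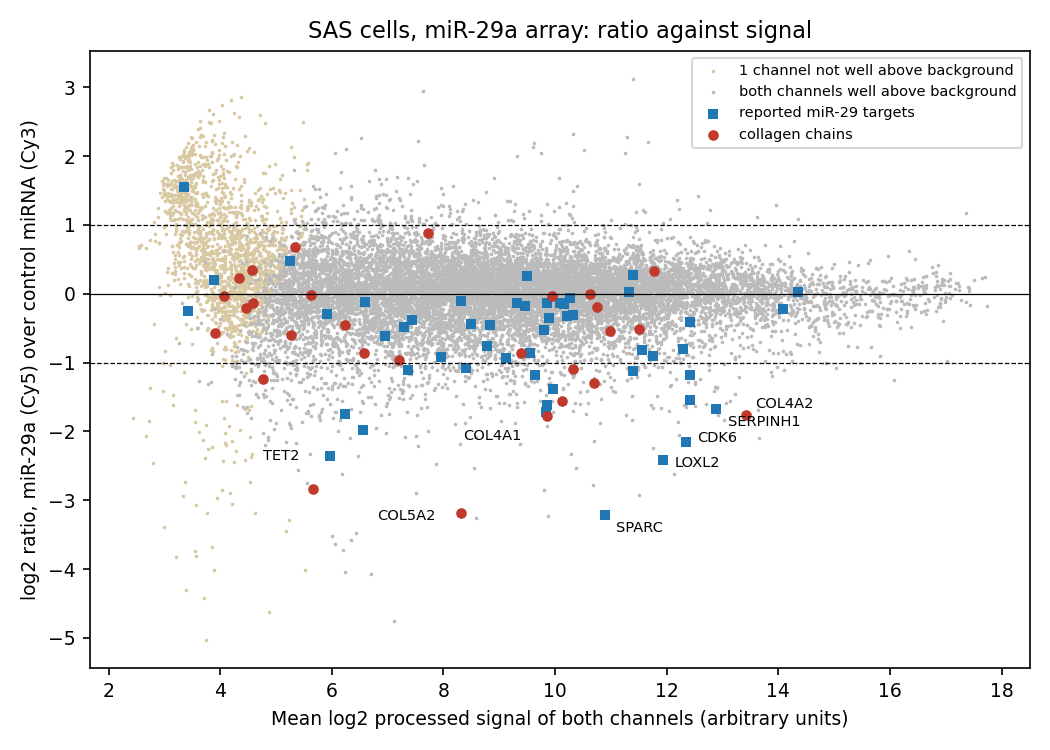
Log2 ratio of miR-29a over control miRNA (vertical axis) against the mean log2 processed signal of both channels (horizontal axis) for the 14773 tested genes of the SAS miR-29a array, with collagen chains as red circles, reported miR-29 targets as blue squares and dashed lines at -1 and 1. Genes with 1 dim channel lie at the left and mostly above 0, and COL4A2 (-1.76), SERPINH1 (-1.67), CDK6 (-2.16) and SPARC (-3.21) lie among the bright genes below the lower line.

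Both type IV collagen genes that mark this experiment were lower after miR-29a. COL4A1 had a log2 signal of 10.75 in the control channel and of 8.97 in the miR-29a channel, a log2 ratio of -1.78 (software error 0.262), or 3.43-fold lower. On the si-LAMB3 and wogonin arrays its log2 ratios were 0.19 and 0.03. COL4A2 had a log2 signal of 14.31 in the control channel and of 12.55 in the miR-29a channel, a log2 ratio of -1.76 (software error 0.26), or 3.38-fold lower. Its log2 ratios on the si-LAMB3 and wogonin arrays were -0.42 and -0.27. Each gene was read by 1 probe with 2 spots. For both genes the fall exceeded the software error, and both other SAS arrays were within 0.5 of 0. Over the 15 other arrays of the design, which hold other cell lines and agents, the log2 ratio of COL4A1 ranged from -0.18 to 1.04 with a median of 0.26, and that of COL4A2 from -0.42 to 1.27 with a median of 0.11. The miR-29a array thus held the lowest value of both genes among the 16 arrays of the design. The remaining arrays of the series were not compared.

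Collagen genes as a whole leaned towards lower values. Of 44 collagen chain genes on the array, 28 were tested, and 23 of these had a log2 ratio below 0. Their median log2 ratio was -0.52, against 0.05 over all tested genes. A total of 8 were lower (28.6%, against 4.03% of all genes) and 0 were higher. On the si-LAMB3 array the median of these collagens was -0.47 with 3 lower and 2 higher, and on the wogonin array it was -0.19 with 4 lower and 1 higher. The collagen median was therefore low on the si-LAMB3 array too. It moved with the processing, to -0.21 with normexp and loess, -0.27 with loess alone and -0.59 with both channels well above background. The cause was not tested.

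COL5A2, COL5A1, COL12A1 and COL6A1 encode chains of the fibrillar, fibril-associated and beaded-filament collagens. COL5A2 fell from a log2 signal of 9.91 to 6.73, a log2 ratio of -3.18 (software error 0.361). It was as low on the si-LAMB3 array (-3.23), and its log2 ratio on the wogonin array was -1.55. COL5A1 had a log2 ratio of -1.56, against -0.95 and -0.21 on the si-LAMB3 and wogonin arrays. COL12A1 had a log2 ratio of -1.30, against -1.46 and -1.42, and COL6A1 one of -1.10, against -0.73 and -0.95. COL5A2 and COL12A1 were thus past the limit on both other SAS arrays as well. COL5A1 and COL6A1 lay below 0 there but did not pass the limit. For COL5A1 the wogonin value was about the size of its software error (0.205). COL4A4, a chain of the minor type IV collagens, had a log2 ratio of -1.24 (software error 0.416), against -1.81 and -1.79, from dim signals of 5.38 and 4.14. Its relatives COL4A5 and COL4A6 had log2 ratios of -0.96 and -0.86 and missed the limit. COL9A2, a chain of a cartilage collagen, had a log2 ratio of -2.84 from a single spot, but its other tested probe gave 0.73 and its control channel was not well above background on both other SAS arrays. The COL5A1 probes ranged from -1.56 to -0.56, and those of COL12A1 from -1.30 to -0.63. Epithelial anchoring collagens moved less, with log2 ratios of -0.45 for COL17A1 and -0.19 for COL7A1. The highest collagen was COL11A2, with 0.89.

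**Figure D2:**
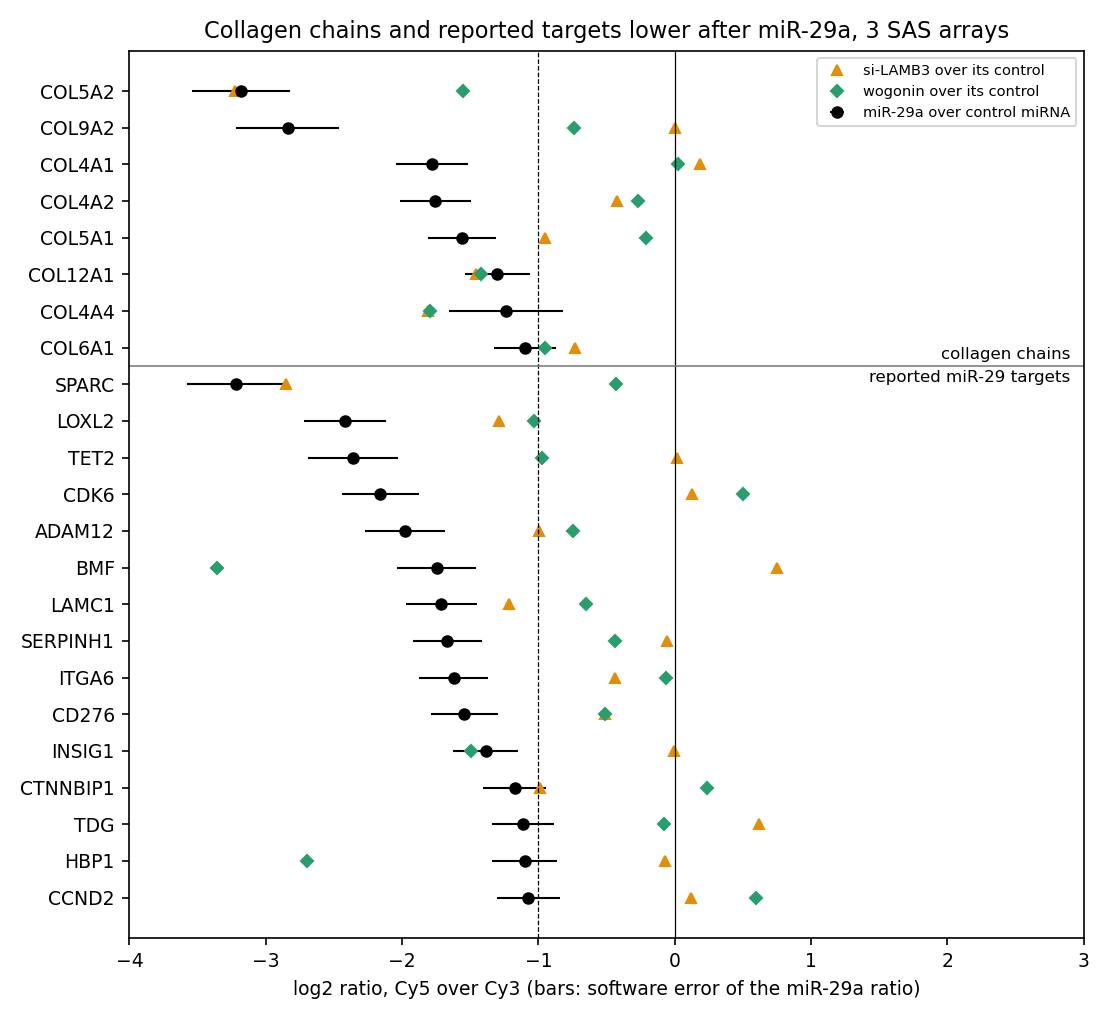
Log2 ratios (horizontal axis) of the 8 collagen chains and 15 of the 16 reported miR-29 targets that were lower after miR-29a, for miR-29a (black, with the software error), si-LAMB3 (orange triangles) and wogonin (green diamonds), each over its control in SAS cells. COL4A1, COL4A2, CDK6, SERPINH1 and ITGA6 have both other arrays to the right of -0.5, whereas for COL5A2, COL12A1, COL4A4 and SPARC at least 1 other array is about as low or lower.

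A list of 60 genes reported as miR-29 targets was drawn up from general knowledge. Whether some of its members were first picked from this array is not known from the sources used here, so the count is no independent evidence of its direction. A total of 51 were tested, 44 of these had a log2 ratio below 0 (against 44.7% of all genes), 16 were lower (31.4%, against 4.03%) and 1 was higher (1.96%, against 5.0%). The median log2 ratio was -0.48. On the si-LAMB3 array it was -0.06 with 9 of 50 lower, against 6.99% of all its genes, and on the wogonin array -0.25 with 10 of 50 lower, against 6.63%. All 16 lower targets were well above the background of the control channel of the 3 SAS arrays. The median was -0.41 with normexp and loess and -0.61 when only probes bright in the 3 control channels were used.

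Among the matrix targets, SPARC, a collagen-binding matricellular protein, fell from a log2 signal of 12.51 to 9.29, a log2 ratio of -3.21 (software error 0.362). It was also low on the si-LAMB3 array (-2.85) and less so on the wogonin array (-0.43). LOXL2, an enzyme that crosslinks collagen, fell from 13.15 to 10.73 over 10 spots, a log2 ratio of -2.42, against -1.29 and -1.03. SERPINH1, the collagen chaperone of the endoplasmic reticulum, fell from 13.72 to 12.06, a log2 ratio of -1.67, against -0.06 and -0.44. The laminin chain LAMC1 had a log2 ratio of -1.71, against -1.22 on the si-LAMB3 array and -0.65 on the wogonin array. ITGA6, the integrin chain that binds laminin in hemidesmosomes, had a log2 ratio of -1.62, against -0.44 and -0.06, and its probes ranged from -1.62 to -1.16. The metalloprotease gene ADAM12 had a log2 ratio of -1.98, against -0.998 and -0.75, but its 3 tested probes ranged from -1.98 to -0.17. SERPINH1 and ITGA6 thus stood apart from both other SAS arrays, and SPARC did not.

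Among targets outside the matrix, CDK6, the kinase that drives cells through G1, fell from 13.42 to 11.26, a log2 ratio of -2.16 (software error 0.285). Its log2 ratios on the si-LAMB3 and wogonin arrays were 0.12 and 0.50. CCND2, a cyclin partner of CDK6, had a log2 ratio of -1.07, against 0.12 and 0.60. The control log2 signal of CCND2 was 8.95 here, against 11.55 and 11.54 on those arrays. CD276, an immune checkpoint protein of the cell surface, had a log2 ratio of -1.54 with its other probe at -0.71, against -0.51 and -0.51. TET2, an enzyme that oxidizes methylated cytosine, had a log2 ratio of -2.36, against 0.02 and -0.98, though its 3 tested probes ranged from -2.36 to -0.34. TDG, the glycosylase that removes oxidized cytosine, had a log2 ratio of -1.11 with its other probe at -1.04, against 0.62 and -0.08. BMF, a pro-apoptotic member of the BCL2 family, had a log2 ratio of -1.75, but its other probe gave 0.66 and the wogonin array gave -3.36. INSIG1, a regulator of sterol synthesis, had a log2 ratio of -1.39, against -0.01 and -1.49. CTNNBIP1, an inhibitor of beta-catenin, had a log2 ratio of -1.17 with its other probe at -0.625, against -0.99 and 0.23. The transcription factor HBP1 had a log2 ratio of -1.10, against -0.07 and -2.69. CDK6, CCND2, CD276, TDG, TET2 and CTNNBIP1 were past the limit on the miR-29a array alone of the 3 SAS arrays, with TET2 and CTNNBIP1 close to it on 1 other array.

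The other reported targets ranged from -0.94 to 0.48 by their brightest probes, apart from ITIH5. Further tested probes of some of these genes were past the limit, the lowest at -2.15 and the highest at 1.88. DNMT3B, the methyltransferase often cited as a miR-29 target, had a log2 ratio of -0.94, and DNMT3A one of -0.39. The anti-apoptotic gene MCL1 had -0.52, CDC42 -0.80 and PIK3R1, a subunit of phosphoinositide 3-kinase, -0.11. The 3 tested probes of CDC42 ranged from -0.80 to 0.09, and those of DNMT3A from -0.51 to 0.18. ITIH5 was the higher one, at least 1.56-fold, with a control signal that was not well above background.

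Genes of the basement membrane, the sheet of laminin and type IV collagen under epithelia, mostly had log2 ratios below 0. Of 27 tested, 21 were below 0, 9 were lower (33.3%, against 4.03% of all genes) and 1 was higher (3.7%, against 5.0%), with a median log2 ratio of -0.54. The si-LAMB3 array also gave 9 lower with a median of -0.66, and the wogonin array 3 lower with -0.36. Besides the collagens, laminins and SPARC described above, FRAS1 (-1.38), PXDN (-1.31) and SMOC2 (-1.23) were lower. SMOC2 was lower still on the si-LAMB3 (-2.45) and wogonin (-2.21) arrays, and PXDN was at -0.66 and -0.55 there. PXDN crosslinks type IV collagen, and FRAS1 anchors epithelium to its basement membrane. The one called higher was SMOC1, whose control signal was not well above background, so that only a rise of at least 1.77-fold is supported. Among 23 tested enzymes and chaperones of collagen processing, 5 were lower (21.7%, against 4.03% of all genes) and 0 higher, with a median of -0.40. These were LOXL2, SERPINH1, P3H2, a prolyl hydroxylase for collagen (-1.70), LOX, a crosslinking oxidase (-1.52), and BMP1, the protease that trims procollagen (-1.17). The BMP1 call depends on the choice of probe, as the mean over its probes was 0.13. LOX and BMP1 were at 0.26 and 0.21 on the si-LAMB3 array and at -0.18 and -0.17 on the wogonin array. P3H2 was also low on both, at -2.20 and -1.23. Of the 11 genes of laminin-332 and the hemidesmosome, the junction that holds epithelium to laminin-332, 2 were lower (18.2%, against 4.03%), ITGA6 among them, with a median of -0.57. On the si-LAMB3 array 4 were lower with a median of -0.80. ITGB4 and LAMA3 followed, at -0.98 and -0.76, and the other tested probe of LAMA3 gave 0.19. ITGB4 was at -1.94 and -0.91 on the si-LAMB3 and wogonin arrays, and LAMA3 at -0.35 and -0.41. The control log2 signal of ITGB4 was 12.61 here, against 14.97 and 14.83 on those arrays. LAMB3 itself was at -0.39 after miR-29a and at -0.89 on the array of the siRNA against it.

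**Figure D3:**
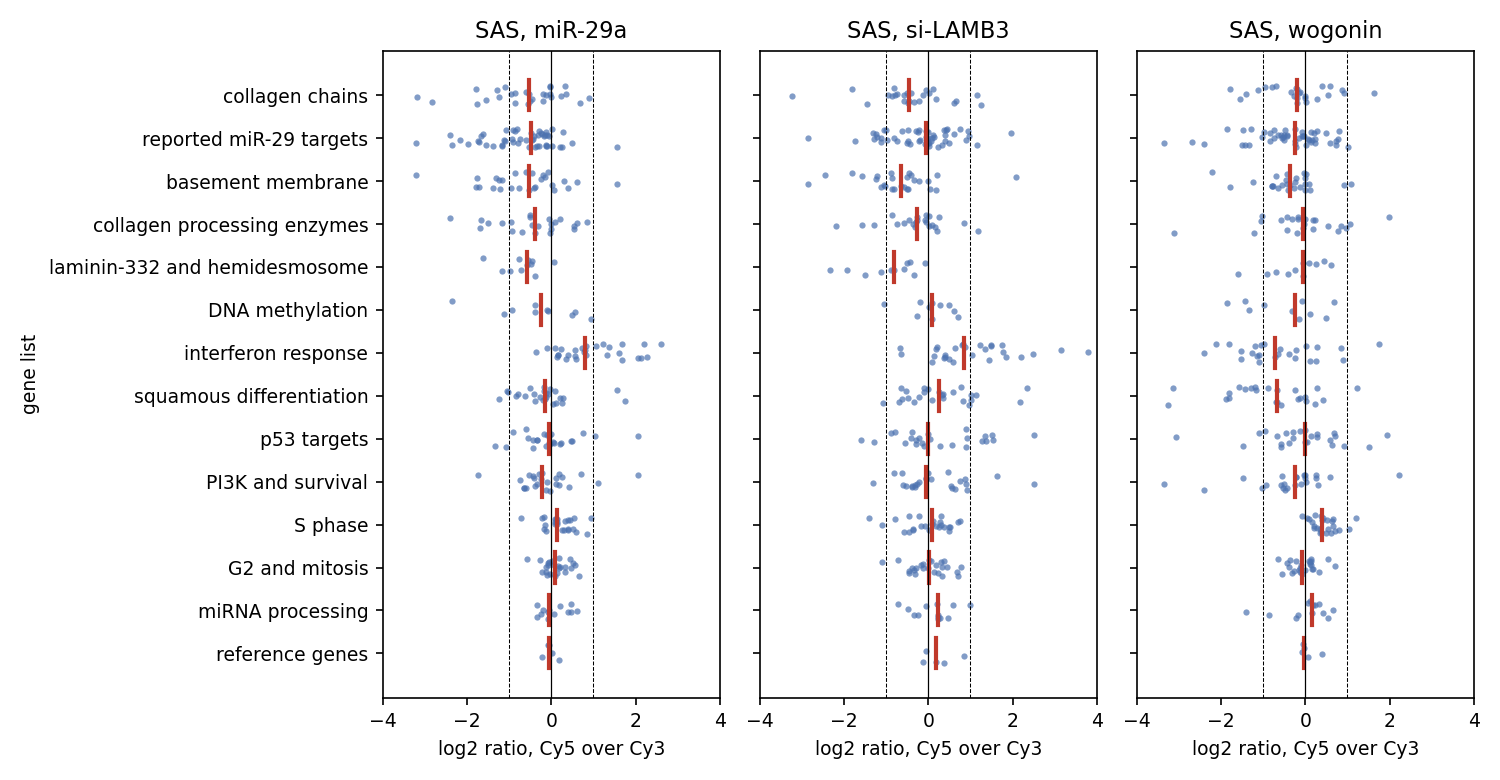
Log2 ratios (horizontal axis, dashed lines at -1 and 1) of the tested members of each gene list after miR-29a, si-LAMB3 and wogonin in SAS cells. Each point is a gene and each red bar the median of its list. The reported targets have a median of -0.48 after miR-29a and of -0.06 and -0.25 on the other arrays, and the interferon genes have medians of 0.80, 0.84 and -0.72.

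The interferon response genes were the list with the most rises. Of 29 tested, 12 were higher (41.4%, against 5.0% of all genes) and 0 were lower, with a median log2 ratio of 0.80. The si-LAMB3 array, also a transfection of a short double-stranded RNA, gave 13 higher with a median of 0.84. The wogonin array gave 11 lower and 1 higher with a median of -0.72. IFIT3, an antiviral protein, rose from a log2 signal of 10.14 to 12.42, a log2 ratio of 2.28. It was at 1.33 on the si-LAMB3 array and at -0.99 on the wogonin array. IFI44 had a log2 ratio of 2.19, against 2.21 and -0.72, and OASL, a relative of the RNA-sensing oligoadenylate synthetases, one of 2.14, against 2.49 and -1.80. BST2, which tethers viruses to the cell surface, was higher at least 3.22-fold with a control signal that was not well above background, and its other probe gave 1.003. The cytosolic RNA sensors RIGI and IFIH1 had log2 ratios of 1.68 and 1.06, though IFIH1 was at -0.21 after the mean of the 15 other arrays was subtracted. The 2 tested probes of RIGI ranged from 0.26 to 1.68, so its call depends on the choice of probe. Both arms of this comparison had been transfected, and the part of transfection in these values was not tested.

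Cell cycle genes moved little. Among 25 S-phase and 25 G2 and mitosis genes, 0 were lower and 0 higher, against 4.03% and 5.0% of all genes. The medians were 0.15 and 0.09. The members with the largest size were UHRF1 (0.93), CLSPN (0.85), GINS2 (-0.71) and TYMS (0.59) for S phase, and NEK2 (0.65), PLK1 (-0.58), HMMR (0.56) and AURKA (0.52) for mitosis. These are values of the brightest probes, and the other tested probes of PLK1 (-1.15) and UHRF1 (1.04) were past the limit. The miRNA processing genes stayed between -0.35 and 0.62, with TNRC6A (0.62), TNRC6C (0.47), DGCR8 (0.46) and DROSHA (0.39) as the largest. The reference genes stayed between -0.23 and 0.19, with PGK1 at -0.23, PPIA at 0.19, ACTB at -0.09 and RPLP0 at -0.06. Of 10 DNA methylation genes, TET2 and TDG were lower (20%, against 4.03% of all genes) and 0 were higher (against 5.0%). DNMT3B (-0.94) and UHRF1 (0.93) came next. Of 25 genes of PI3K signaling and survival, BMF was lower (4%, against 4.03% of all genes). PMAIP1 (2.05) and PIK3R3 were higher (8%, against 5.0%), so both shares were near those of all genes. PMAIP1, a pro-apoptotic gene that p53 can induce, was also at 2.52 on the si-LAMB3 array. PIK3R3 was higher 2.14-fold (software error 0.486) with a dim control signal. Of 25 p53 targets, 2 were lower (8%, against 4.03%) and 2 higher (8%, against 5.0%), with a median of -0.07. These were TP53I3 (-1.34) and TIGAR (-1.07), and PMAIP1 and SESN2 (1.05).

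Epithelial genes were on the low side. All 10 squamous epithelium markers had a log2 ratio below 0 (against 44.7% of all genes) and 4 were lower (40%, against 4.03%), with a median of -0.82, and the median on the si-LAMB3 array was -0.77 with 4 lower as well. Among these 4 were the desmosomal cadherin DSG3 (-2.33), SFN (-1.13), a 14-3-3 protein of epithelia, and TP63 (-1.02), the master regulator of squamous cells, whose control signal was not well above background. The keratins KRT14 and KRT17 were at -0.11 and -0.03. Control log2 signals of several of these markers were lower here than on the si-LAMB3 and wogonin arrays. They were 11.21 against 14.15 and 15.07 for KRT14, and 10.96 against 13.79 and 14.71 for KRT17. For DSG3 they were 6.77 against 9.48 and 9.68, whereas LAMB3 had 14.73 against 14.42 and 14.52. The cause of this difference between control cultures was not tested. Of 26 tested genes of squamous differentiation, 3 were lower (11.5%, against 4.03% of all genes) and 2 were higher (7.69%, against 5.0%). The lower ones were CRCT1 (-1.25), IVL (-1.05) and ELF3 (-1.02). SPRR3 was higher at least 2.44-fold and KLK10 at least 2.18-fold, both with dim control signals. The median was -0.16. Among the markers of other cell types, CD14 had a log2 ratio of -1.02, against -0.78 and -2.08 on the other SAS arrays. VWF was at 0.84 and CDH5 at 0.14. PTPRC was at 0.28, CD3E at 0.38, DCN at 1.05 and COL1A1 at -0.04, all with control signals that were not well above background.

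The largest falls and rises over all genes were taken among probes well above background in both channels. The 12 largest falls were those of ADGRG5 (-4.75), MAGEB16 (-4.08), ARMC12 (-4.04), C18orf15 (-3.72), CMTM5 (-3.64), TMPRSS11B (-3.58), FSIP2 (-3.51), OR10H5 (-3.48), TRIM54 (-3.26), NRN1 (-3.23), SPARC and COL5A2. All of them except SPARC and COL5A2 rested on a single spot. All of them except TRIM54, SPARC and COL5A2 had a control channel that was not well above background on either other SAS array, although the same cell line was used. Of the 89 genes lower by 2 or more, 50 had this pattern (56.2% of those well above the background of the control channel), against 1.81% of all such genes. Of all 596 genes called lower, 93 had it (15.7% of those well above the background of the control channel). Of the 16 reported targets called lower by that same limit, 0 had it. The cause was not tested.

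With the control channel well above background on all 3 SAS arrays, a rule set after these values were seen, the 12 largest falls were TRIM54, SPARC, COL5A2, DIO2 (-2.92), ANGPTL4 (-2.89), CYP1B1 (-2.85), CLDN1 (-2.78), C1QTNF5 (-2.75), SLC2A3, CXADR (-2.61), HEG1 (-2.61) and HYKK (-2.54). SLC2A3, a glucose transporter, was lower 6.65-fold (software error 0.499) with a dim miR-29a channel. DIO2 activates thyroid hormone, CLDN1 seals tight junctions, and ANGPTL4 inhibits lipoprotein lipase. HYKK rested on a single spot and had another probe at 0.07. Its control log2 signal was 9.82 here, against 6.69 and 6.99 on the si-LAMB3 and wogonin arrays. Of these, CXADR, an adhesion protein of epithelial junctions, was near 0 on the si-LAMB3 (-0.09) and wogonin (0.02) arrays, whereas CLDN1 was at -2.53 on the si-LAMB3 array and SLC2A3 at -2.58 and -2.72 on both.

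Among genes with the 3 control channels well above background, 5646 lay within 0.5 of 0 on both other SAS arrays. Of these, 101 were lower after miR-29a (1.79%) and 29 were higher, a smaller share than the 3.79% lower among all genes with these control channels. The 12 largest of these falls were TRIM54, CXADR, FGFBP1 (-2.18), CDK6, RCC2 (-2.05), MEST (-1.86), EIF4E2 (-1.84), COL4A1, S100A16 (-1.76), COL4A2, SERPINH1 and VAMP7 (-1.64). This band was set after the values were seen. TRIM54 rests on a single spot with a control log2 signal of 10.22, against 5.93 and 6.03 on the other SAS arrays. Both marker collagens, the collagen chaperone and CDK6 are among these 12. FGFBP1 releases fibroblast growth factors from the matrix, and RCC2 acts in chromosome segregation and cell spreading. The RCC2 probes both fell (-2.05 and -1.98), whereas those of EIF4E2 ranged from -1.84 to 1.35.

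The 12 largest rises were those of SNORA62 (3.12), SNORA2A (2.95), SNORA23 (2.32), IFIT3, CMPK2 (2.26), CEP192P1 (2.22), SCARNA16 (2.20), IFI44, OASL, ZNF669 (2.10), SNORA28 (2.09) and TEX19 (2.05). SNORA62, SNORA2A, SNORA23, SNORA28 and SCARNA16 are small nucleolar and Cajal body RNAs, which guide the modification of ribosomal and spliceosomal RNA. IFIT3, IFI44, OASL and the mitochondrial nucleotide kinase CMPK2 are interferon response genes, and CEP192P1, ZNF669 and TEX19 belong to neither group. TEX19 and ZNF669 were also high on the si-LAMB3 array (2.22 and 1.71). SNORA23 was at -0.29 and -0.09 on the si-LAMB3 and wogonin arrays.

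Probes that hold a match to the miR-29a seed had lower ratios than probes that do not. Of 27013 tested probes, 3.63% were lower by the limit of 1. Among the 232 tested probes (0.859%) with a match of 7 or 8 letters, 29 were lower (12.5%), against 3.54% of 26560 probes without a match. Their median log2 ratio was -0.07, against 0.09 without a match, a difference of -0.16. The 35 probes with GGTGCTA alone had a median of -0.47 and 6 lower. The 35 probes with TGGTGCTA had a median of -0.19, with 4 lower and 5 higher (14.3%, against 6.88% of probes without a match), and the 162 with TGGTGCT but no following A had a median of -0.01 and 19 lower. The 221 probes with only the 6 letters GGTGCT had a median of 0.06. The reverse complement AGCACCA, without any match on the sense strand, occurred in 115 probes, with a median of 0.15 and 3 lower. Most probes with a match were not lower, and 17 were higher by the limit of 1. The median share of G and C letters was 45% in probes with a 7- or 8-letter match and in probes without a match. The median log2 control signal was 6.62 with and 7.39 without a match. The difference of medians was -0.26 with both channels well above background, -0.09 with normexp and loess, and 0 with no filter, where dim probes have a log ratio near 0.

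Of the probes shown at the start, PTX3, a secreted pentraxin of innate immunity, had a log2 ratio of -2.53 over 10 spots, against 1.23 and 1.21 on the si-LAMB3 and wogonin arrays. GCSH, a subunit of the glycine cleavage system, was at -1.61, against -0.62 and 1.05. PTPRK, a receptor tyrosine phosphatase, was at -1.66, against -1.07 and -0.55, and FRAS1 at -1.38, against -0.50 and -0.01. ELOVL4, ATAD2B and CFL2 were at -1.08, -1.03 and -1.03. PTX3 and GCSH thus had opposite signs after miR-29a and after wogonin. For PTX3 the control log2 signal was 11.64 on the miR-29a array, against 8.38 and 7.96 on the si-LAMB3 and wogonin arrays. Some of the probes that met the same rule but are not shown were lower on another SAS array. These include ID1 (-1.21, against -2.40 and -1.55), PPT1 (-1.2, against -2.06 and -0.30), ADA (-1.07, against -2.01 and -0.94) and LRRC73 (-1.25, against -1.71 and -1.27). Others not shown were lowest after miR-29a, such as CCDC167 (-2.14, against -0.88 and -0.51) and GGCT (-1.46, against -0.05 and 0.85). Of the probes shown, HBP1 was lower on the wogonin array (-2.69) than after miR-29a (-1.10).

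**Figure D4:**
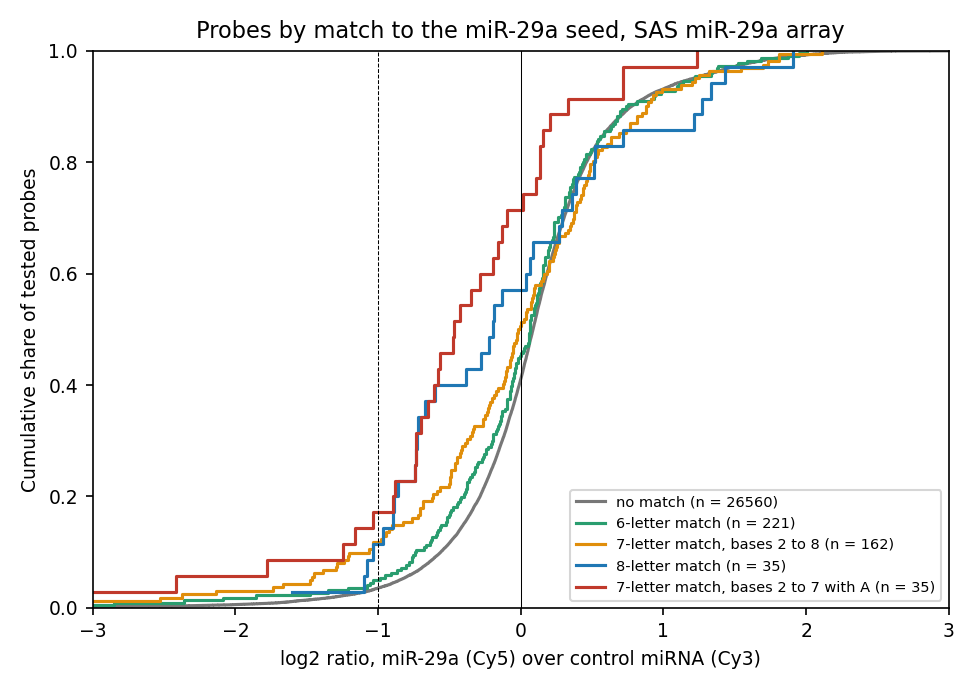
Cumulative share of tested probes (vertical axis) up to a given log2 ratio of miR-29a over control (horizontal axis), by the match of the probe to the miR-29a seed, on the SAS miR-29a array. At -1 (dashed line) the curves of the 7- and 8-letter matches lie above that of probes without a match, at 11.4% to 17.1% against 3.54%, with GGTGCTA the highest.

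The same measures were taken on the 15 other arrays of the design, on which no miR-29 was transfected. The difference of medians between probes with and without a 7- or 8-letter match ranged from -0.01 to 0.19 there. It was 0.03 on the si-LAMB3 array and 0.10 on the wogonin array of SAS. The shares of lower probes were less distinct, since on the si-LAMB3 array 12.1% of the probes with TGGTGCTA and 14.3% of those with GGTGCTA alone were lower, against 6.56% without a match. For all 7- and 8-letter matches the share there was 8.44%. The share of matching probes that were lower reached 11.3% on 1 of these arrays, FaDu with miR-375, where 12.3% of the probes without a match were lower as well. The median of the reported targets minus that of all genes was -0.54 on the miR-29a array and between -0.29 and 0.20 on the others. Of the 39 reported targets tested on all 16 arrays, 12 (30.8%) had their lowest value on the miR-29a array, against 3.96% of all such genes. These included CDK6, TDG, CD276 and ITGA6, and for ITGA6 the next lowest value was close (-1.62 against -1.61). The collagen median minus that of all genes was -0.57 on the miR-29a array, but it was -0.60 on the genistein array of PC3 and -0.49 on the si-LAMB3 array of SAS.

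**Figure D5:**
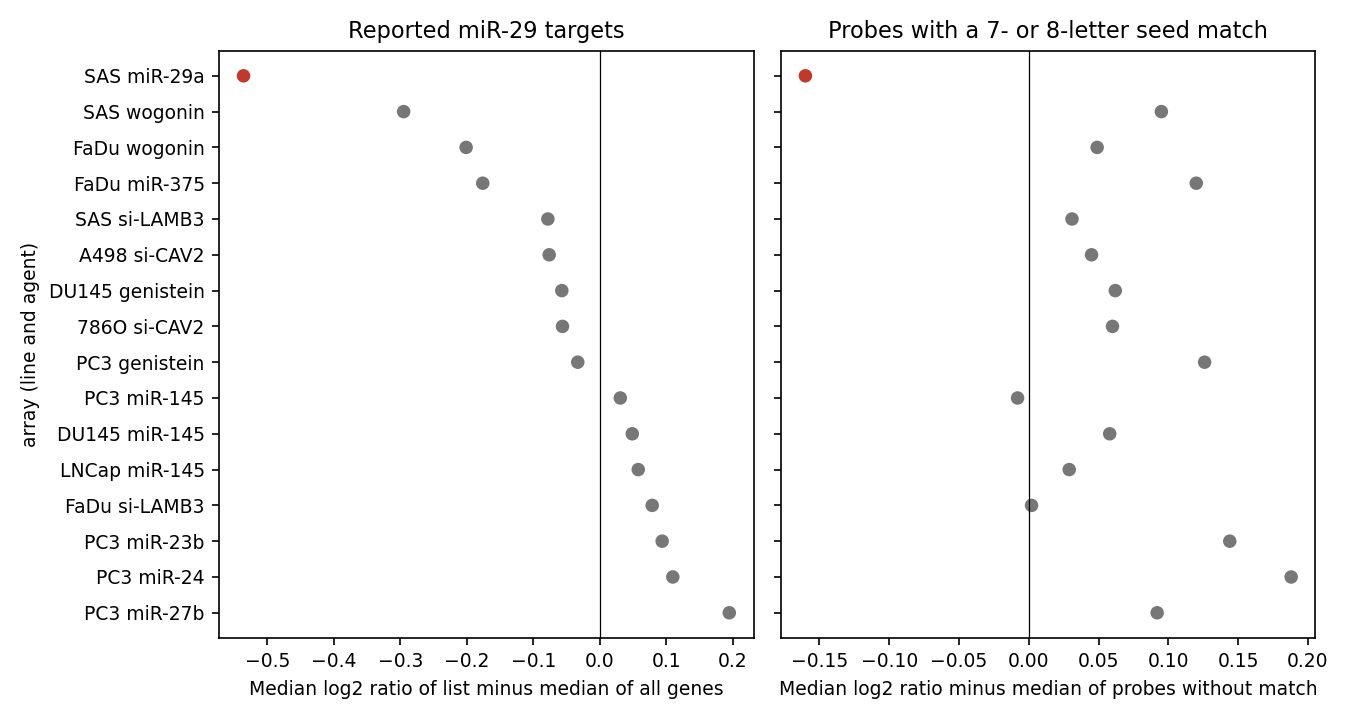
The 16 arrays of the design (vertical axis, cell line and agent, 1 array each). The left panel gives the median log2 ratio of the reported miR-29 targets minus the median of all genes, and the right panel the median log2 ratio of probes with a 7- or 8-letter seed match minus that of probes without one. The miR-29a array (red) has the lowest value in both panels, -0.54 and -0.16.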

How the data were processed

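Total RNA had been extracted with Trizol, labeled with a 2-color linear amplification kit and hybridized to Agilent 60K arrays. The authors deposited the output of Agilent Feature Extraction 10.7.3.1, which holds intensity values per spot and channel and a log10 ratio of Cy5 over Cy3, corrected for background and dye by the software. Its error of each ratio covers 1 array only. The study's paper reports the genistein arrays and not this one. The authors' value table held the same log10 ratios, with a largest difference of 0 over 58233 spots and a column median of 0.

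Log10 ratios were converted to log2, control spots and the 484 of 58717 spots with outlier flags on the miR-29a array were left out, and repeated spots were averaged per probe. A share of 0.5 of the spots had to be well above background for a probe to count as such. RefSeq (GRCh38.p14) named 29005 of the 42405 probes (68.4%), for 20514 genes. Probe positions are those of the array annotation on hg19. No spot was saturated. Spots of the same probe had a median SD of 0.055 (log2) over 6233 probes. A channel that was not well above background was set to the lowest signal well above background on this array, where it lay below that. The fold is then a lower bound. Where the dim signal lay above that level, as for SLC2A3 and PIK3R3, the fold is the measured ratio and no bound. With 1 array per condition, calls were made by size. The number of arrays limits the precision. The genes named are COL4A1 and COL4A2, every collagen chain and reported target past the limit, the 12 largest falls and rises well above background in both channels, and the 4 members of each other list with the largest size. Some list members are counted in their lists but not reported here by name. Members and lists were chosen with earlier results of these data known, and names added later are marked. The steps were tested on simulated data. Python 3.11.15 was used, and limma 3.58.1 in R 4.3.3 for the normexp and loess alternatives.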

Additional observations from a re-analysis of the deposited data

How the results depend on the processing

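The array has 1 culture per arm, so no replicate could be left out and none of these values carries a test. No paired analysis was possible because each group has 1 sample and the result comes from no test. Alternatives changed the background correction, the dye normalization, the source of the values, the filter, the choice of probe and the limit, and the filter on the control channels of the 3 SAS arrays was added after the data were seen. What depth limits here is signal over background, as 530 of 739 rises had a dim control channel.

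The count of lower genes was 596 and became 258 with normexp and loess, 305 without background correction, 1244 with no filter, 1951 at a limit of 0.5 and 219 at a limit of 1.5. The count of higher genes was 739 and became 56, 71, 209 with both channels well above background, 183 with the 3 control channels, and 2257 and 292 at the limits of 0.5 and 1.5. Lower collagens numbered 8, with 4 after subtracting the mean of the other SAS arrays and 15 and 5 at the other limits. Lower reported targets numbered 16, with 25 and 10 at the other limits. Without a change of limit, they numbered 13 to 18 in every alternative run. Higher calls were a minority with either loess setting, with both channels or the 3 control channels well above background, with median centring, with no filter, and after subtraction of the 15 other arrays (52.7% of calls lower), and a majority with the deposited ratios, after subtraction of the SAS arrays (48.5%) with the mean over probes (42.3%) and at either other limit.

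The collagen median of -0.52 became -0.21 with normexp, -0.27 without background correction, -0.61 with centring, -0.26 after subtracting the SAS arrays, -0.59 with both channels, -0.16 with no filter, -0.43 with the mean over probes and -0.85 with the 3 control channels. The target median of -0.48 became -0.41, -0.42, -0.57 with centring, -0.63 after subtracting the 15 other arrays, -0.56 with both channels and -0.61 with the 3 control channels. The seed difference of -0.16 became -0.094 with normexp, -0.09 without background correction, -0.27 after subtracting the 15 other arrays, -0.26 with both channels, 0.0 with no filter and -0.27 with the 3 control channels.

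Of 132 genes followed one by one, 8 past the limit changed sign after subtracting the mean of the other SAS arrays, COL12A1 (0.14), COL4A4 (0.56), HBP1 (0.28), P3H2 (0.012), PIK3R3 (-0.05), TP63 (0.022), CD14 (0.41) and SMOC2 (1.10). IFIH1 did so after subtracting the 15 other arrays (-0.21), and BMP1 with the mean over probes (0.13). No other gene of the 132 that was past the limit changed sign under the alternatives run. With normexp and loess 47 of the 132 moved by more than their software error.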

Other observations

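Small nucleolar RNAs were described after their values were seen, because several stood among the largest rises. Of 28 tested genes that RefSeq types as snoRNA, 11 (39.3%, against 5.0% of all genes) were higher after miR-29a and 0 were lower, with a median log2 ratio of 0.64. On the si-LAMB3 array 6 of 28 were higher, against 7.39% of all its genes, with a median of 0.50, and on the wogonin array 3 of 27, against 6.43%, with a median of -0.05. SNORA62 (3.12) and SNORA2A (2.95) were the highest, whereas SNORD17 was at -0.41 and SNORA60 at -0.39. Many snoRNAs lie in introns of host genes, and whether these probes read the small RNA or the host transcript was not tested.

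PTX3 was the lowest of the probes shown with a seed match. It went from a log2 signal of 11.64 in the control channel to 9.11 in the miR-29a channel, whereas it was higher on both other SAS arrays (1.23 and 1.21). The control log2 signals of PTX3 on those arrays were only 8.38 and 7.96, below its miR-29a signal of 9.11 here. The cause of this difference between control cultures was not tested.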
